A study of Rattus norvegicus with 24 samples.

Results

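Expression of 10 immediate early genes, Fos, Fosb, Jun, Junb, Egr1, Atf3, Ier2, Nr4a1, Dusp1 and Zfp36, was followed in the kidneys of 24 rats with polycystic kidney disease. They were taken by name from the 17334 genes listed for each kidney, with earlier results of these data known, and each was found by its rat symbol and Entrez identifier. All 10 were among the 12778 genes that passed the filter on low counts.

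Immediate early genes are transcribed within minutes of a stimulus, without the need for new protein synthesis, because the factors that switch them on are already present in the cell. Growth factors, calcium, cAMP, mechanical stretch, ischaemia and injury reach them through MAP kinases, serum response factor and CREB, and their mRNAs are short-lived. In the kidney they respond to ischaemia and tubular injury, and they also respond to the way tissue is taken, including anaesthesia, warm time and the interval before freezing. Fos, Fosb, Jun and Junb encode subunits of the AP-1 transcription factor. Egr1 encodes a zinc finger transcription factor, Atf3 a stress-induced member of the ATF/CREB family, and Nr4a1 an orphan nuclear receptor. Ier2 encodes a small nuclear protein. Dusp1 encodes a phosphatase that switches off MAP kinases, and Zfp36 encodes tristetraprolin, which binds AU-rich elements and speeds the decay of inflammatory and early response mRNAs, so that both close the response.

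All animals were PKD/Mhm (Cy/+) rats, a line with a dominant cystic kidney disease carried here on a single mutant allele, and the study's methods state that all were male. The left kidney was taken at 8 months of age under anaesthesia, frozen before perfusion, and total RNA of the whole organ was sequenced. Each of 4 groups held 6 animals. Ctrl animals received no cell product, i.p. ABCB5+ and i.v. ABCB5+ animals received human skin-derived ABCB5+ stromal cells by the intraperitoneal or the intravenous route, and CoCM animals received conditioned medium from these human cells grown together with activated macrophages of the human THP-1 line. Treatment was given once a month for 6 months. The route of CoCM is given as intraperitoneal in one description of the study and as intravenous in another. The cells were thus human and the recipients rats. Which animal had its kidney removed on which day is not stated in the labels, and the only order they carry is the animal number, which runs from 1 to 24 in Ctrl and from 26 to 43 in the treated groups.

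Total estimated counts ranged from 9304630 to 14125457 per kidney, so that 3 counts, taken as the floor of detection, corresponded to at most 0.322 CPM (counts relative to library size), and all 10 genes stood above it in every kidney. Markers of kidney tubules were abundant in every kidney, whereas 4 of 6 adrenal markers had medians under the floor. Animals 36 and 37 (i.v.), 38 (i.p.) and 39 (CoCM) stood apart from the other 20, and all 3 treated groups held at least 1 of them. Spp1, which encodes osteopontin and is high in injured tubules, lay between 370 and 670 CPM in these 4 kidneys and between 6596 and 13004 CPM in the others. Ctrl animal 1 had the highest sum of the 6 red blood cell markers, 10213 CPM against a Ctrl median of 1207 CPM. Main results on the 10 genes are given below with and without these kidneys, where stated. Comparisons of cell type markers and of lists of related genes are given with all kidneys only.

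RefSeq sequence upstream of the transcription start was at hand for 7 of the 10 genes (assembly GRCr8, which is not the rn6 build behind the files), and not for Fos, Jun and Atf3. Sequences of 250 bases are shown for 2 sets of genes. Nr4a1, Dusp1 and Zfp36 were among the 5 genes with an unadjusted p under 0.05 in i.v. ABCB5+ against Ctrl and hold an element marked here (of the other two, Fosb holds none and Jun had no sequence). Junb and Ier2 were the pair whose levels ran closest together. Each is written 5′ to 3′ in the direction of the gene and ends at the base before the annotated start. Capitals mark the cAMP response element TGACGTCA bound by CREB and ATF proteins, its half-site TGACG, which reads as CGTCA on the opposite strand, and the CArG box bound by serum response factor.
Nr4a1, chr7:134259888-134260137, plus strand: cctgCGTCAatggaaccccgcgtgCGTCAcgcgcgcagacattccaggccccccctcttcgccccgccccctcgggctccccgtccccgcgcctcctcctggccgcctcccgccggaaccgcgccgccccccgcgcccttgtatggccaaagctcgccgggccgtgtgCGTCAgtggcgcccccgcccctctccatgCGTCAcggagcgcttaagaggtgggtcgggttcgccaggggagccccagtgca
Dusp1, chr10:17184603-17184852, plus strand: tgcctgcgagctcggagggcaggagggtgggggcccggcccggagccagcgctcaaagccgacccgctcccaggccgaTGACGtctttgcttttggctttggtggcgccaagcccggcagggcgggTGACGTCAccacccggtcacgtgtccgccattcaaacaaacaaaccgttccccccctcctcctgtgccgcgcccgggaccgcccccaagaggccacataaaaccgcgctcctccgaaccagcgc
Zfp36, chr1:92799109-92799358, minus strand: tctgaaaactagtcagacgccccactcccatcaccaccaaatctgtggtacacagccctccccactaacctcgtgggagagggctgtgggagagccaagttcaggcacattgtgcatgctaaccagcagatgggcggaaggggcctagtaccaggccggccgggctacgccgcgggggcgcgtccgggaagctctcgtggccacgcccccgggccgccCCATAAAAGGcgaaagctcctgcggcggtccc
Junb, chr19:40080876-40081125, plus strand: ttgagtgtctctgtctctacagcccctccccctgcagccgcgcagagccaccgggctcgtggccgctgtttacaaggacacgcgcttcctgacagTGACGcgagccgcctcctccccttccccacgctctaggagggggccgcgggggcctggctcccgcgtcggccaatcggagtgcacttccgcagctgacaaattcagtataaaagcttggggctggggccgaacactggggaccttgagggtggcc
Ier2, chr19:40399123-40399372, plus strand: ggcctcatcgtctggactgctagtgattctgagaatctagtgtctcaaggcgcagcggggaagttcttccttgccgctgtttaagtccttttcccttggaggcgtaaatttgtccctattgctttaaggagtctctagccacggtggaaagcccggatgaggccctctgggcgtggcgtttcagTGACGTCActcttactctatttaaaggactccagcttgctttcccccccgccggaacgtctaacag

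The full cAMP response element was present in Dusp1, at 124 to 117 bases before the start, and in Ier2, at 66 to 59 bases before the start. It occurred in 2 of the 7 sequences and in 1.7% of 27457 rat promoters of the same length. Its half-site, which overlaps the full element by definition, occurred in 5 of 7 (Nr4a1, Dusp1, Egr1, Junb and Ier2) and in 19% of all promoters, with 4 separate copies in Nr4a1. The CArG box occurred in 2 of 7, Zfp36 and Egr1, and in 1.5% of all promoters. In Zfp36 the CArG box lay 32 to 23 bases before the start and overlapped by 1 base a GC box (GGGCGG) read on the opposite strand. Both strands were searched. The AP-1 site TGANTCA occurred in 0 of 7 and 6.36% of all promoters, the ETS site CCGGAAG in 0 of 7 and 7.74%, the GC box in 3 of 7 and 32.4%, the TATA box TATAAA in 2 of 7 and 13.1%, and the EGR site GCGNGGGCG in 2 of 7 and 4.53%. These matches describe letters in a window and carry no evidence of binding in these kidneys.

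To compare levels between genes, the length-scaled TPM values were used. By the median over 24 kidneys the order was Zfp36 (173 TPM), Junb (169 TPM), Jun (144 TPM), Dusp1 (75.3 TPM), Egr1 (66.8 TPM), Ier2 (53.8 TPM), Nr4a1 (39.6 TPM), Fos (33.7 TPM), Atf3 (30.9 TPM) and Fosb (4.7 TPM). Zfp36 was above 94.7% of the genes listed, Fos above 74.1% and Fosb above 40.8%. Zfp36 and Junb, and Fos and Atf3, lay closer to each other than the spread between animals of either gene. All 10 genes were thus read well above the floor in whole kidney, with the RNA decay factor Zfp36 and the AP-1 subunits Junb and Jun at the top. Below, values of a single gene are in normalised CPM, which compare kidneys and not genes.

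Animals of the same group differed widely in most of these genes. With group means removed, the SD of log2 CPM between animals was largest for Fosb (1.08), followed by Atf3 (0.83), Fos (0.80), Nr4a1 (0.77), Egr1 (0.66), Dusp1 (0.53), Zfp36 (0.42), Junb (0.39) and Ier2 (0.39), and smallest for Jun (0.24). The median SD was 0.59 for the 10 genes and 0.30 for all genes tested, and 9 of 10 exceeded the latter. Jun was the exception, with 39.9% of all genes less variable than it. Among the 500 genes nearest in level, the share with a smaller SD was 96% for Atf3, 95.8% for Fos, 94% for Fosb, 94% for Nr4a1 and 92% for Egr1, but 43.8% for Jun. The same AP-1 family thus held both the most and the least variable member. Without animals 36 to 39 the median SD was 0.61.

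**Figure D1:**
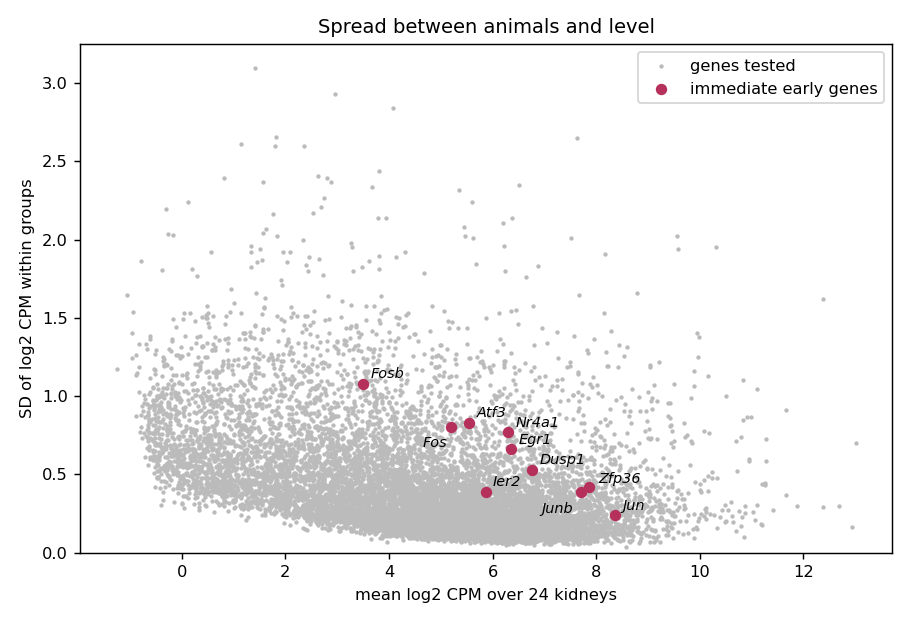
Each grey point is 1 of 12778 genes tested, placed by its mean log2 CPM over 24 kidneys (x axis) and by the SD of its log2 CPM between animals with group means removed (y axis). The 10 immediate early genes are red, and 9 of them, all but Jun at 0.24, lie above the median SD of 0.30.

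Part of this spread was that of single animals in 3 of the groups. Without Ctrl animal 1, i.p. animal 29 and CoCM animal 40, left out after their values were seen, the median SD of the 10 genes was 0.40 (0.30 for all genes). The SD of Egr1 was then 0.40 and that of Fos 0.54, while those of Fosb (0.83), Atf3 (0.71) and Nr4a1 (0.67) moved less in proportion. Atf3 was also widely spread in the i.v. group, with an SD of 0.94, in which none of the 3 animals falls. CoCM animal 40 had the highest level of its group in 10 of 10 genes, i.p. animal 29 in 10 of 10, and Ctrl animal 1 in 9 of 10, the exception being Atf3, which was highest in Ctrl animal 23. The mean of the 10 centred log2 values was 1.04 for CoCM animal 40, 0.69 for Ctrl animal 1 and 0.68 for i.p. animal 29. No such single animal was seen in the i.v. group, where all 6 means lay above 0, from 0.11 (animal 37) to 0.82 (animal 43), and animal 36 was highest in 5 genes and animal 43 in 3. At the other end, i.p. animal 31 was among the 4 lowest of 24 in all 10 genes, with a mean of -0.96.

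Some sums of cell type markers were also highest in these animals, and others were not. Ctrl animal 1 had the highest sums of its group not only for red blood cells but also for injured tubule (17130 CPM), fibroblast (3853 CPM), smooth muscle (1140 CPM), macrophage (1007 CPM) and lymphocyte (199 CPM) markers. CoCM animal 40 had the highest sums of its group for endothelium (684 CPM), fibroblast (3200 CPM), smooth muscle (1314 CPM), macrophage (915 CPM) and lymphocyte (187 CPM) markers. For i.p. animal 29 this held for injured tubule (16238 CPM) and fibroblast (2551 CPM) markers only. In the i.p. group macrophage, lymphocyte and red blood cell sums were highest in animal 30, and endothelium and smooth muscle sums in animal 41. In CoCM the injured tubule sum was highest in animal 26 and the red blood cell sum in animal 34. Proximal tubule sums were highest in Ctrl animal 24, CoCM animal 39 and i.p. animal 38. In whole-organ RNA, more cells of a type and more RNA per cell cannot be told apart, and the part of these markers in the high levels was not tested.

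**Figure D2:**
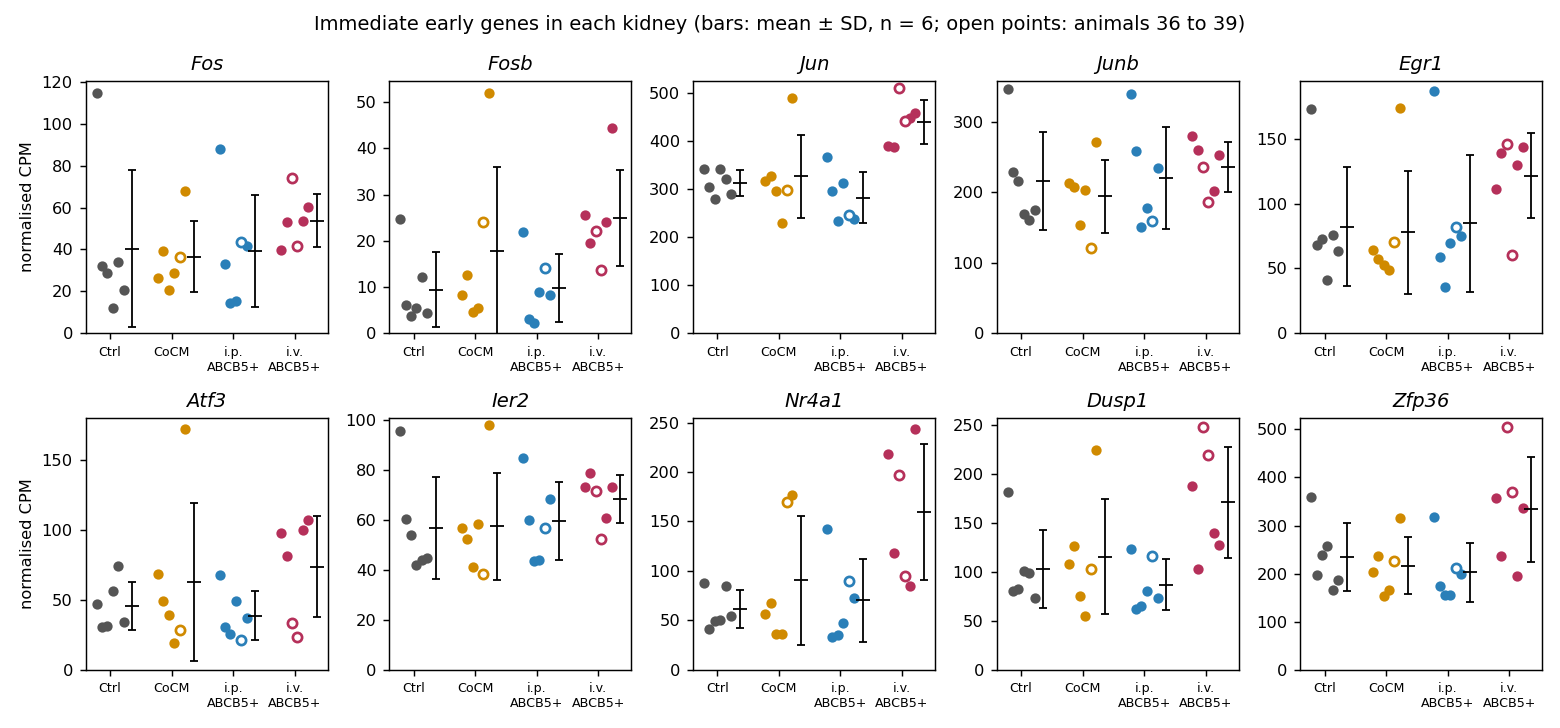
Normalised CPM (y axis, linear and starting at 0) of each gene in each kidney by group, with points in order of animal number within a group, the mean ± SD (n = 6) at the right of the points, and animals 36 to 39 as open points. The i.v. ABCB5+ points for Jun, 386 to 510, all lie above the Ctrl points, 278 to 342, and a single high point in Ctrl, CoCM or i.p. ABCB5+ recurs across the panels.

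The comparison of i.v. ABCB5+ with Ctrl asks whether cells given into the blood changed these genes. None of the 10 passed the adjusted threshold, and all 10 had higher fitted levels in i.v. animals, with a median log2 fold change of 0.54 against 0.01 for all genes. At an unadjusted p under 0.05 the edgeR test counted 5 of 10 as higher (Fosb, Jun, Nr4a1, Dusp1 and Zfp36), where 4.44% of all genes tested were so counted. After adjustment over all genes, 0 of 12778 genes, or 0%, passed 0.05, and the adjusted p-values of the 10 lay between 0.673 and 0.828. The differences below are therefore described and are not calls.

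Among the AP-1 subunits, Jun was the clearest. Its lowest, median and highest values were 278, 312 and 342 CPM in Ctrl and 386, 444 and 510 CPM in i.v. ABCB5+. The 2 groups did not overlap, which held in this direction for 7 of all 12778 genes (0.0548%). The fitted difference was 0.49 ± 0.14 (log2 fold change ± SE, 1.40-fold, edgeR adjusted p = 0.673), and the two-sided exact permutation test of this single gene gave p = 0.00216, the smallest that 6 against 6 animals can give. Jun stood out by its narrow spread rather than by the size of its shift.

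Fosb, which encodes a partner of Jun in AP-1, showed the largest shift. It ranged from 3.67 to 24.8 CPM in Ctrl (median 5.72) and from 13.7 to 44.5 CPM in i.v. ABCB5+ (median 23.2), a fitted log2 fold change of 1.41 ± 0.61 (edgeR adjusted p = 0.673, exact permutation p = 0.013). The ranges overlapped only through Ctrl animal 1, since the next Ctrl value was 12.2 CPM. Fos, the other Fos-family subunit, ranged from 12.2 to 115 CPM in Ctrl (median 30.5) and from 39.6 to 74 CPM in i.v. ABCB5+ (median 53.5). Here too the 6 i.v. values lay above 5 of 6 Ctrl values, but the 115 CPM of Ctrl animal 1 kept the fitted difference at 0.41 ± 0.45 (edgeR adjusted p = 0.739). Junb overlapped fully, with 161 to 347 CPM in Ctrl and 186 to 280 CPM in i.v. ABCB5+ (0.13 ± 0.22, adjusted p = 0.828).

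Nr4a1, the nuclear receptor with 4 half-sites upstream, had 41.3, 52.5 and 87.4 CPM as its lowest, median and highest Ctrl values and 85.2, 157 and 244 CPM in i.v. ABCB5+. Of 6 i.v. animals, 5 lay above the whole Ctrl range. The fitted log2 fold change was 1.38 ± 0.43 (2.60-fold, edgeR adjusted p = 0.673, exact permutation p = 0.00433). Egr1 had a Ctrl median of 70.5 CPM (40.9 to 173) and an i.v. median of 135 CPM (60.4 to 146), with overlapping ranges and a log2 fold change of 0.56 ± 0.38 (adjusted p = 0.677). Atf3 had a Ctrl median of 40.7 CPM (30.7 to 74) and an i.v. median of 89.5 CPM (23.4 to 107). Its i.v. values fell into 4 above the Ctrl range, and 2 low ones, 33.4 and 23.4 CPM, in animals 36 and 37. Ier2 had a Ctrl median of 49.3 CPM (41.9 to 95.7) and an i.v. median of 72.4 CPM (52.5 to 78.6), a log2 fold change of 0.27 ± 0.22 (adjusted p = 0.693).

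The genes that end the response also lay higher. Dusp1, the MAP kinase phosphatase, had a Ctrl median of 91.1 CPM (73.1 to 182) and an i.v. median of 164 CPM (103 to 248), with a log2 fold change of 0.73 ± 0.30 (edgeR adjusted p = 0.673, exact permutation p = 0.0325). Zfp36, which promotes mRNA decay, had a Ctrl median of 219 CPM (165 to 360) and an i.v. median of 348 CPM (196 to 506), a difference of 0.51 ± 0.23 (edgeR adjusted p = 0.673, exact permutation p = 0.0974). In both genes the highest value of all 24 kidneys was that of i.v. animal 36.

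**Figure D3:**
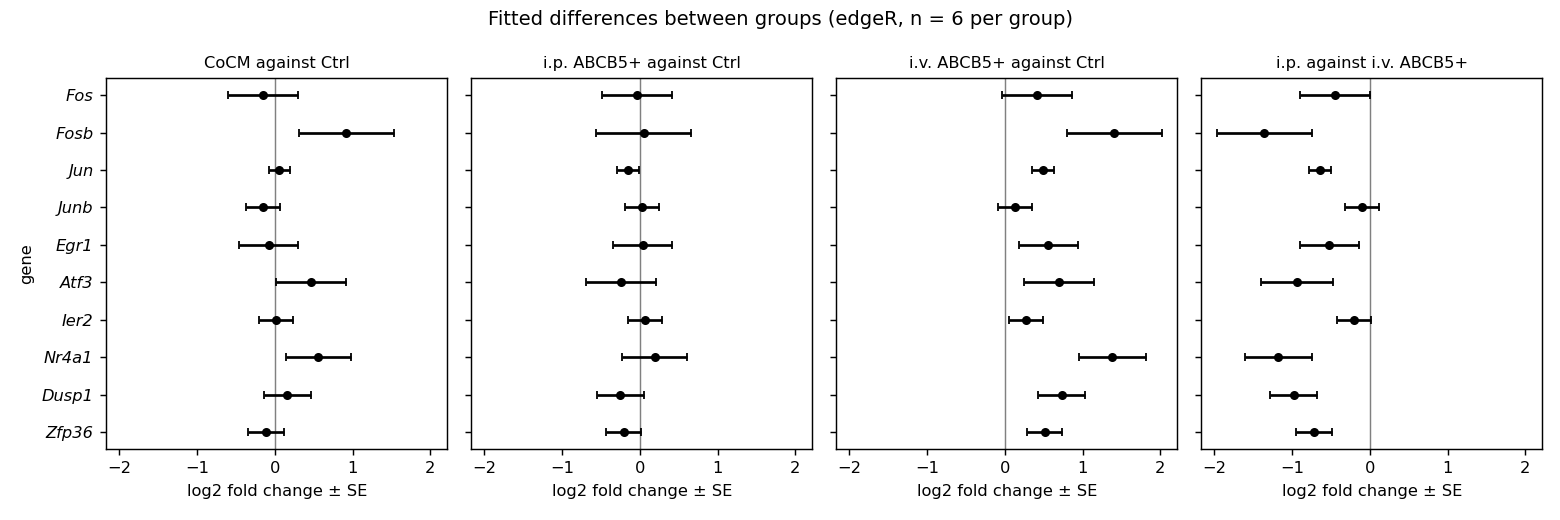
Fitted log2 fold changes (points) and their SE (bars) of the 10 genes in 4 comparisons, with 0 marked by the vertical line (edgeR, n = 6 per group). The 10 points lie above 0 for i.v. ABCB5+ against Ctrl and below 0 for i.p. against i.v. ABCB5+, which share the i.v. animals, and on both sides of 0 for CoCM and i.p. ABCB5+ against Ctrl.

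How many of these genes were counted depended on single kidneys, on the kidneys that stood apart and on the method. With limma and sample quality weights, 7 of 10 had an unadjusted p under 0.05 (4.06% of all genes), with Fos, Egr1, Atf3 and Ier2 counted in addition and Dusp1 and Zfp36 no longer. Without Ctrl animal 1, 8 of 10 had an unadjusted p under 0.05 (all but Junb and Atf3, with 2% of all genes so counted as higher), and Fos, Fosb, Jun, Nr4a1 and Dusp1, 5 of 10, did not overlap with the 5 remaining Ctrl animals, which held for 0.102% of all genes. Without Ctrl animal 24, on the other hand, 2 of 10 remained under 0.05, Jun and Nr4a1 (7.65% of all genes), and 3 of 10 without Ctrl animal 12 (2.34%) or 18 (3.75%) or i.v. animal 36 (1.35%), 37 (0.811%) or 43 (7.21%). Jun and Nr4a1 were counted in each of these fits. Without animals 36 to 39, Jun still did not overlap (386 to 458 CPM against 278 to 342 CPM, log2 fold change 0.42, exact permutation p = 0.00476). Atf3 did not overlap in that setting either (81.1 to 107 CPM against 30.7 to 74 CPM, exact permutation p = 0.00952), its low i.v. values being those of animals 36 and 37. Nr4a1 then differed by 1.44, Fosb by 1.60 and Atf3 by 1.08, and these 4 genes had an unadjusted p under 0.05 (0.753% of all genes), whereas Dusp1 differed by 0.43 and Zfp36 by 0.27, both above it. Levels of cell type markers differed between these groups too. Of the 6 red blood cell markers, 5 had an unadjusted p under 0.05 in the lower direction (1.34% of all genes), with a median log2 fold change of -2.10. Their sums were 345 to 1376 CPM in i.v. ABCB5+ against 282 to 10213 CPM in Ctrl, the highest being that of Ctrl animal 1. Hbb was 1384 CPM in Ctrl animal 1, 17 to 151 CPM in the other 5 Ctrl animals and 13.9 to 166 CPM in i.v. ABCB5+. The difference in Hbb thus rested largely on Ctrl animal 1. Of the 10 proximal tubule markers, 9 had fitted levels above Ctrl, 1 of them at an unadjusted p under 0.05, with a median log2 fold change of 0.81. Their sums were 4493 to 24553 CPM in i.v. ABCB5+, highest in animal 37, against 2677 to 10343 CPM in Ctrl. The group medians of these sums were 7641 and 4768 CPM. Of 11 injured tubule markers 0 lay above Ctrl (median -0.45), 0 of them under that p, with sums of 1939 to 14869 CPM against 10794 to 17130 CPM. The group medians of these sums were close, 11716 CPM in i.v. ABCB5+ and 12042 CPM in Ctrl. Spp1 was 641 and 670 CPM in i.v. animals 36 and 37 and 6596 to 9960 CPM in the other i.v. animals. Fibroblast (median -0.57), macrophage (-0.52) and lymphocyte (-0.45) markers also had 0 members above Ctrl, and 0 under that p. The part of these markers in the difference was not tested. In addition, treated animals carry higher numbers than Ctrl animals throughout, so that animal number and treatment cannot be told apart in any comparison with Ctrl.

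The comparison of the 2 routes involves treated animals only, whose numbers are interleaved. It shares the i.v. animals with the comparison above and is no separate evidence on them. All 10 genes had lower fitted levels in i.p. than in i.v. animals, with a median log2 fold change of -0.68 (0.00 for all genes). In the edgeR test 5 of 10 had an unadjusted p under 0.05, again Fosb, Jun, Nr4a1, Dusp1 and Zfp36, where 1.46% of all genes were counted as lower in i.p. animals. No gene of 12778 passed after adjustment (0%), and the adjusted p was 0.9999 for all 10. With limma and sample quality weights 10 of 10 had an unadjusted p under 0.05 (4.15% of all genes). Among cell type markers, 0 of 10 proximal tubule markers had higher fitted levels in i.p. animals (median -0.61, with sums of 3351 to 12281 CPM against 4493 to 24553 CPM in i.v. animals), and 0 of them had an unadjusted p under 0.05. The highest of these sums were those of i.p. animal 38 and i.v. animal 37, and the group medians were 6990 and 7641 CPM. All 5 smooth muscle markers had higher fitted levels in i.p. animals (median 0.49, with sums of 469 to 1073 CPM against 347 to 785 CPM). Of these, 2 had an unadjusted p under 0.05, where 0.689% of all genes were counted as higher. Collecting duct principal cell markers (6 of 6, median 0.36, 1 under that p) and injured tubule markers (10 of 11, median 0.20, 0 under it) also had higher fitted levels. Only 1 of 6 podocyte markers did (median -0.16). The part of all these markers in the difference was not tested.

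Jun ranged from 232 to 366 CPM in i.p. ABCB5+ (median 270) and from 386 to 510 CPM in i.v. ABCB5+. The groups did not overlap, which held in this direction for 4 of all 12778 genes (0.0313%), and the log2 fold change was -0.64 ± 0.14 (edgeR adjusted p = 0.9999, exact permutation p = 0.00216). This Jun difference was -0.53 without animals 36 to 39 (232 to 366 CPM against 386 to 458 CPM, exact permutation p = 0.0159), and -0.62 with animal number as a covariate. Its adjusted p lay between 0.0704 (DESeq2) and 1 over the alternatives to this comparison, and the lower value was the smallest of any of the 10 genes; with sample quality weights in limma it was 0.299.

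Dusp1 ranged from 62.4 to 123 CPM in i.p. animals (median 77.4) against 103 to 248 CPM in i.v. animals, a log2 fold change of -0.98 ± 0.30 (edgeR adjusted p = 0.9999, exact permutation p = 0.00866). Zfp36 ranged from 155 to 318 CPM (median 186) against 196 to 506 CPM (-0.72 ± 0.23). Nr4a1 ranged from 33.2 to 142 CPM (median 60.1) against 85.2 to 244 CPM (-1.18 ± 0.43). In these 3 genes the groups overlapped, in Dusp1 and Nr4a1 through i.p. animals 29 and 38, and in Zfp36 through these and i.p. animal 41. Fosb ranged from 2.07 to 21.9 CPM (median 8.6) against 13.7 to 44.5 CPM (-1.36 ± 0.61), and Atf3 from 21.2 to 68 CPM (median 33.9) against 23.4 to 107 CPM (-0.94 ± 0.46). Without animals 36 to 39 the Atf3 values did not overlap (25.3 to 68 CPM against 81.1 to 107 CPM, exact permutation p = 0.0159). Egr1 (35.9 to 187 CPM, -0.52 ± 0.38), Fos (14.5 to 87.9 CPM, -0.45 ± 0.45), Ier2 (43.7 to 84.8 CPM, -0.20 ± 0.22) and Junb (151 to 340 CPM, -0.10 ± 0.22) each held i.p. animal 29 above all 6 i.v. animals. Without i.p. animal 29 the count of genes under an unadjusted p of 0.05 was 7 of 10 (1.61% of all genes), without animals 36 to 39 it was 5 of 10 (0.683%), and with animal number as a covariate it was 4 of 10, Jun, Nr4a1, Dusp1 and Zfp36 (1.11% of all genes).

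In CoCM animals the 10 genes lay on both sides of Ctrl, 6 with fitted levels above and 4 below, with a median log2 fold change of 0.04. In the edgeR test 0 of 10 had an unadjusted p under 0.05, where 11.9% of all genes did. After adjustment 1 of 12778 genes passed (0.00783%), which was none of the 10, and their adjusted p-values lay between 0.51 and 0.977. The largest difference was that of Fosb, with 4.59 to 52 CPM (median 10.4) in CoCM and a log2 fold change of 0.92 ± 0.61. Nr4a1 followed with 36 to 177 CPM (median 62.2, 0.56 ± 0.42) and Atf3 with 18.8 to 172 CPM (median 44.3, 0.46 ± 0.45). The Nr4a1 values of the group split widely: animals 39 and 40 had 170 and 177 CPM, and the other 4 had 36 to 67.7 CPM. Jun ranged from 229 to 489 CPM (median 308) and overlapped Ctrl on both sides. The remaining genes, Fos (20.8 to 68.1 CPM), Junb (121 to 271 CPM), Egr1 (49.1 to 174 CPM), Ier2 (38.2 to 97.8 CPM), Dusp1 (55.4 to 225 CPM) and Zfp36 (153 to 316 CPM), differed from Ctrl by log2 fold changes of -0.15 to 0.16. The sign of each of these 6 small differences turned when either Ctrl animal 1 or CoCM animal 40 was left out.

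In i.p. ABCB5+ animals 5 genes had fitted levels above and 5 below Ctrl, with a median log2 fold change of -0.01 and a range from -0.25 (Dusp1) to 0.19 (Nr4a1). In the edgeR test 0 of 10 had an unadjusted p under 0.05 (1.77% of all genes), and the adjusted p-values lay between 0.978 and 0.995. Fos, for example, had a median of 37.3 CPM in i.p. ABCB5+ and 30.5 CPM in Ctrl, and both groups held 1 high animal, at 87.9 and 115 CPM.

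CoCM was also compared with the mean of both cell groups. Here 8 genes had lower and 2 higher fitted levels in CoCM, with log2 fold changes from -0.38 to 0.23 and a median of -0.19. In the edgeR test 0 of 10 had an unadjusted p under 0.05 (7% of all genes), and adjusted p-values lay between 0.804 and 0.985. Against Ctrl, the mean of the 3 treated groups gave 10 log2 fold changes of 0.00 to 0.79, again with 0 of 10 under an unadjusted p of 0.05 (6.56% of all genes) and adjusted p-values of 0.577 to 0.999. Asked whether any of the 4 groups differed, the edgeR test gave an unadjusted p under 0.05 for Jun, Nr4a1, Dusp1 and Zfp36, 4 of 10 (4.71% of all genes), with an adjusted p of 0.817 for each.

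Since these genes respond to tissue handling, their order by animal number was examined, although the labels do not say that the numbers follow the order of handling. In the 18 treated animals, with group means removed from level and number, Pearson's r between log2 CPM and number lay between -0.29 (Junb) and 0.36 (Fosb), and Spearman's rho between -0.34 (Junb) and 0.35 (Fos). The permutation p-values of r lay between 0.167 and 0.938 over the 10 genes, and without the 2 animals farthest from the median number r lay between -0.32 and 0.28. In the edgeR fit of a slope with number, 0 of 10 had an unadjusted p under 0.05 (6.52% of all genes) and the adjusted p-values were 0.687 to 0.958. Neighbouring numbers could differ strongly: i.p. animal 29 and i.v. animal 28 were above the median of the 24 kidneys in all 10 genes, while i.p. animal 31 was above it in 0 of 10.

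In the 6 Ctrl animals, numbered 1, 12, 18, 22, 23 and 24, the picture was different. Junb was lower at higher numbers, from 347 CPM in animal 1 through 229 and 216 CPM in animals 12 and 18 to 169, 161 and 175 CPM in animals 22, 23 and 24 (r = -0.98, exact permutation p = 0.00556, rho = -0.83, exact permutation p = 0.0583). Ier2 went from 95.7 through 60.4 and 53.8 to 41.9, 44.1 and 44.9 CPM in the same order (r = -0.98, exact permutation p = 0.00833, rho = -0.77, exact permutation p = 0.103). For both, r was of the same sign without animals 1 and 12, the 2 farthest from the median number, -0.89 for Junb and -0.83 for Ier2, over 4 animals. For Fos (r = -0.86, exact permutation p = 0.0431) it was -0.21 without them, for Egr1 (-0.82, p = 0.0708 by exact permutation) it was -0.18, and for Dusp1 (-0.75, p = 0.104 by exact permutation) no relation was left (-0.00), so that these rest on those 2 animals. Zfp36 had r = -0.76 (p = 0.0833 by exact permutation) and -0.61 without them, whereas Fosb had -0.67 (p = 0.133 by exact permutation) and 0.45 without them. Jun (-0.35), Nr4a1 (-0.29) and Atf3 (0.18) showed weaker relations. An edgeR slope fitted in the 6 Ctrl animals, added after these values were seen, counted 7 of 10 as lower with number at an unadjusted p under 0.05 (11.4% of all genes). The smallest adjusted p-values were 0.0874 for Ier2 (-0.050 ± 0.006 log2 units per number) and 0.103 for Junb (-0.046 ± 0.006), so that none of the 10 passed 0.05, and 3 of 12085 genes did (0.0248%). In all, 20 relations with number were examined, 10 in each set of animals.

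**Figure D4:**
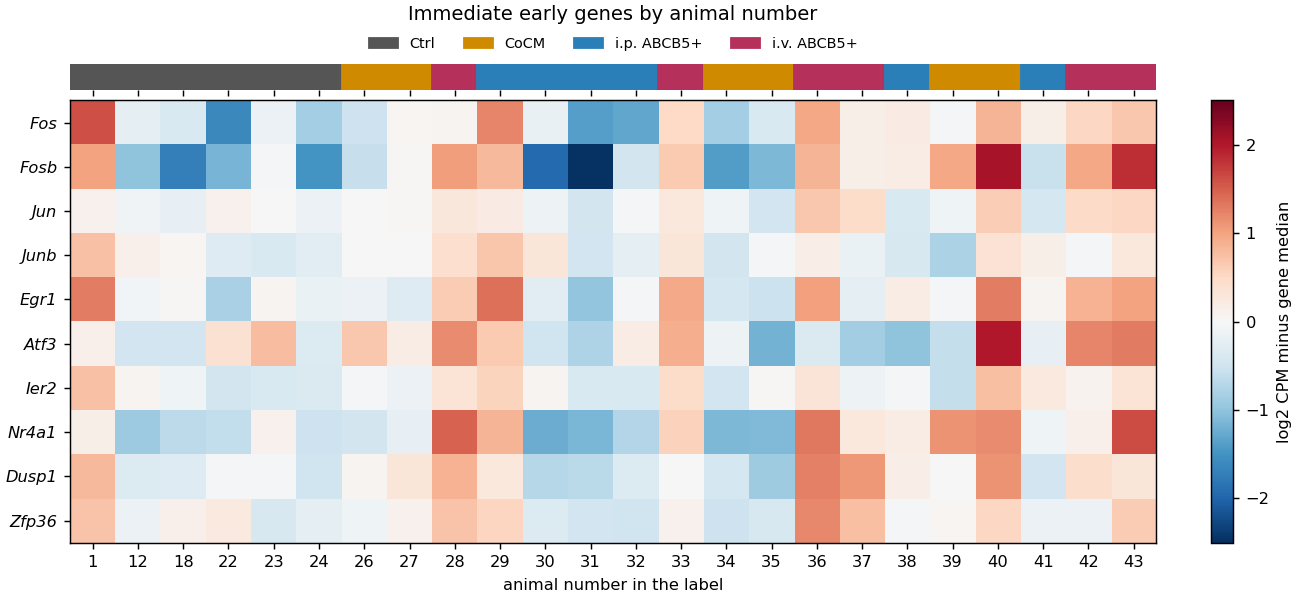
Log2 CPM of each gene minus its median over 24 kidneys (colour, red above and blue below) for the kidneys in order of animal number (x axis), with the group of each in the bar on top. Columns 1, 29 and 40 are red in nearly every gene, as are the i.v. columns 28, 33, 36 and 43. Column 31 is blue in every gene, and no gradient runs across the treated animals, numbers 26 to 43.

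The genes varied together from animal to animal. With group means removed, all 45 pairs had a positive Pearson correlation of log2 CPM over the 24 kidneys, from 0.11 (Atf3 with Zfp36) to 0.92 (Junb with Ier2), with a median of 0.58 against 0.00 over all pairs of genes tested, and 31 pairs were above 0.5. The points share libraries and depth, so these values are a description. The highest pairs after Junb and Ier2 (rho = 0.86) were Fosb with Nr4a1 (0.87), Fos with Egr1 (0.86), Fosb with Egr1 (0.84), and, at 0.81 each, Dusp1 with Zfp36, Fos with Ier2 and Egr1 with Ier2. Junb and Ier2, whose upstream sequences are given above, lie on chromosome 19 with 22 genes between them, 17 of them protein-coding (GRCr8). Atf3 and Junb had the lowest median correlation with the other genes, 0.44 each. The closest partner of Atf3 was Jun (0.62, and 0.89 without animals 36 to 39).

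Much of this rested on 3 animals. Without Ctrl animal 1, i.p. animal 29 and CoCM animal 40, left out after their values were seen, the median correlation was 0.21, with 34 of 45 pairs above 0 and 9 above 0.5. The 5 highest pairs were then Junb with Ier2 (0.87), Fosb with Nr4a1 (0.83), Dusp1 with Zfp36 (0.69), Fos with Egr1 (0.68) and Fosb with Egr1 (0.65), whereas Fos with Ier2 was 0.57 and Egr1 with Ier2 was 0.47. At the other end, Ier2 with Jun was -0.30 (0.43 in all 24 kidneys) and Atf3 with Zfp36 was -0.34. Without animals 36 to 39 the median was 0.74, and Atf3 with Dusp1 was 0.81, against 0.31 in all kidneys. In those 4 kidneys Atf3 lay at 21.2 to 33.4 CPM (18.8 to 172 CPM in the other 20), whereas Dusp1 lay at 103 to 248 CPM (55.4 to 225 CPM) and Nr4a1 at 89.9 to 197 CPM (33.2 to 244 CPM). The 10 genes thus did not move as 1 block in the kidneys with low Spp1.

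**Figure D5:**
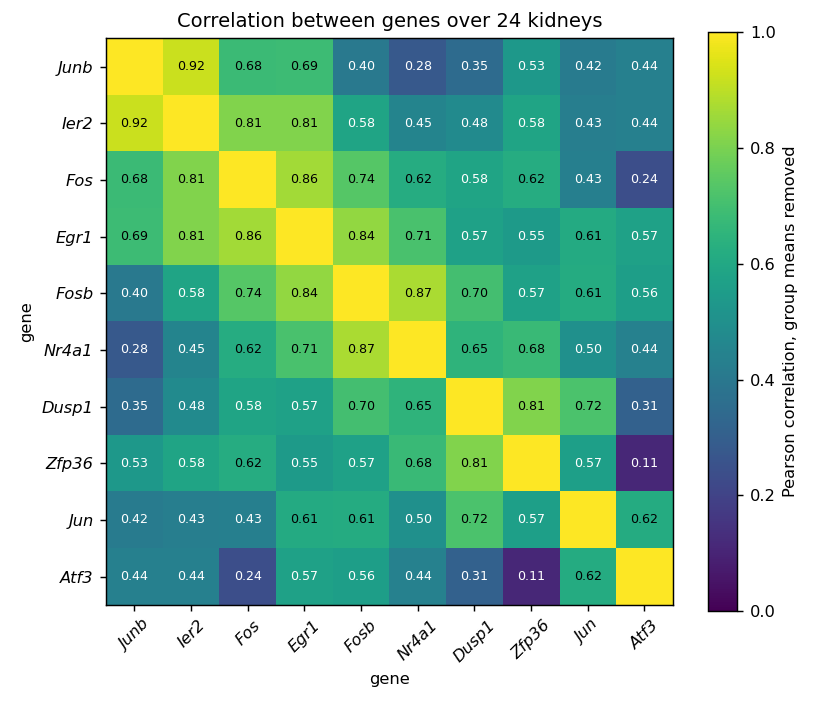
Pearson correlation (colour and printed value, scale 0 to 1) between each pair of the 10 genes over 24 kidneys, from log2 CPM with group means removed. Junb with Ier2 (0.92) is brightest, followed by Fosb with Nr4a1 (0.87), Fos with Egr1 (0.86) and Fosb with Egr1 (0.84), and Atf3 with Zfp36 (0.11) is darkest.

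Of the 8 other genes most like the mean of the 10 over 24 kidneys, 4 were on the lists of immediate early genes described below (Btg2, Ppp1r15a, Ccn1 and Klf2) and 4 were on none of them. Btg2, an antiproliferative early gene, had r = 0.92 (rho = 0.90), and Ppp1r15a, which encodes the stress-induced phosphatase subunit GADD34, had r = 0.87. They were followed by Sulf1 (0.84), an extracellular heparan sulphatase, Ccn1 (0.77), a matricellular immediate early gene, Scmh1 (0.75), the flow-responsive transcription factor Klf2 (0.75), Ccdc80 (0.73) and Ext2 (0.72). For single genes, Atf3 left aside, the nearest were Sulf1 for Fos (0.71), Btg2 for Fosb (0.82) and for Egr1 (0.88), Csrnp1 for Jun (0.73), Spry1 for Junb (0.84), Grb2 for Ier2 (0.79), Mafk for Nr4a1 (0.82), Gdf15 for Dusp1 (0.75) and Kctd5 for Zfp36 (0.78). These are the highest of 12778 genes by choice and are given without a test.

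Relatives and partners of the 10 genes were read from 8 lists. No gene of any list passed the adjusted threshold in any comparison of groups. At an unadjusted p under 0.05 in i.v. ABCB5+ against Ctrl, 5 of 27 other immediate early effectors and 4 of 17 other immediate early transcription factors were counted as higher and 0 as lower, with median log2 fold changes of 0.10 and 0.15 (edgeR; 4.44% of all genes were counted as higher). Csrnp1, a transcription factor of this class and the nearest gene to Jun, had 22.7 ± 3.44 CPM (SD, n = 6) in Ctrl and 39.2 ± 7.34 CPM in i.v. ABCB5+, a log2 fold change of 0.79 ± 0.19 with an adjusted p of 0.673 by edgeR. Of the AP-1 and CREB relatives 1 of 16 was higher, Atf4 (0.20 ± 0.07), which mediates the integrated stress response, while Jund, the most abundant AP-1 gene of the list, differed by 0.13 ± 0.15. The MAP kinase phosphatases and feedback inhibitors had 1 of 17 higher, heat shock genes 1 of 15, and the 11 mRNA decay and inflammatory early genes, the 23 upstream kinases and serum response factors and the 11 hypoxia response genes had 0. Of the upstream genes, 16 of 23 had fitted levels above Ctrl, with a median log2 fold change of 0.03. The most abundant of them, Map2k2, which encodes the ERK kinase MEK2, differed by 0.23 ± 0.13, Mapk3, which encodes ERK1, by 0.03 ± 0.08 and Mapkapk2 by -0.01 ± 0.08.

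Between the routes, 9 of 27 effectors, 3 of 17 transcription factors, 1 of 16 AP-1 and CREB relatives, 2 of 17 phosphatases and feedback inhibitors, 2 of 23 upstream genes and 2 of 15 heat shock genes were counted as lower in i.p. animals at an unadjusted p under 0.05, where 1.46% of all genes were. Median log2 fold changes were -0.22 for the effectors and -0.30 for the transcription factors. Ccn2, a matricellular effector, differed by -0.74 ± 0.37 and the transcription factor Klf2 by -0.26 ± 0.17. The likeness to the mean of the 10 genes over animals also differed by list. Its median was 0.36 for the transcription factors and 0.34 for the effectors, 0.22 for the AP-1 and CREB relatives, 0.17 for the upstream genes, -0.15 for the hypoxia genes and -0.43 for the heat shock genes (-0.01 for all genes). The 3 most abundant heat shock genes, Hspa8 (-0.44), Hsp90ab1 (-0.43) and Hspe1 (-0.39), which encode constitutive or mitochondrial chaperones, thus ran against the 10 genes. Single genes at the upper end, named after their values were seen, were the inducible chaperone Hspa1a (0.57), the serum response factor gene Srf (0.69) and Adm, which encodes the vasodilator adrenomedullin (0.71).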

How the data were processed

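RNA of the left kidney of 24 rats, 6 in each of 4 groups named by the sample labels, was sequenced on a BGISEQ-500. The submitters' processing notes list Trim Galore 0.6.4, kallisto 0.4.6 and the rn6 build. The study's methods name a human gene model package and DESeq2. The authors deposited estimated counts, not normalised, of which 86.4% to 87.3% were whole numbers, and TPM values, which sum to 964191 to 976409 per kidney. Depth is given with the results, and the 3-count floor covers counting error only.

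Counts were rounded, filtered with filterByExpr by group (12778 genes) and scaled by TMM. A mean per group was fitted to all 24 kidneys in edgeR 4.0.16 (R 4.3.3) and compared by the quasi-likelihood F-test, with Benjamini-Hochberg adjustment over all genes and a threshold of 0.05. The SE is the log2 fold change divided by the square root of F. Single genes were also compared by a two-sided exact permutation test of mean log2 CPM (prior count 2) over 924 splits. DESeq2 1.42.0 and limma 3.58.1 were alternatives. Slopes with animal number were fitted with group as a factor in the 18 treated animals. Scripts were tested on simulated data. No 2 libraries of a group were alike within sampling noise (chi-square over its degrees of freedom at least 10.3). The labels name separate animals. Symbols came from RefSeq (17179 of 17334 identifiers matched). The 10 genes, the gene lists and the tests were chosen with earlier results of these data known. All 10 genes are named. Of the lists, a gene past the adjusted threshold or among the 3 of highest mean TPM may be named, and likeness names the 8 genes nearest the mean of the 10 and the nearest to each, with an average log2 CPM above 1. Hspa1a, Srf and Adm were named outside this rule, after their values were seen. A value that this rule would name is not reported here.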

Additional observations from a re-analysis of the deposited data

Results flagged for a closer look

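Of 40 sets of 6 animals (10 genes in 4 groups), 11 held a highest animal whose gap in CPM to the next, divided by the range of the group, exceeded 0.625, the critical value of Dixon's test at the 95% level for 6 values. The nominal chance rate of 1 in 20, or 2 of 40, holds for normally distributed values and for an outlier at either end. Here the ratio was taken on CPM and not on log2 CPM, and only the highest animal was examined. The genes are also correlated, so that the sets are not independent. The count of 11 is therefore a description and is not weighed against 2 of 40. All 11 came from 3 animals, and none from the i.v. ABCB5+ group.

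Ctrl animal 1 stood apart for Fos (115 CPM, the other 5 between 12.2 and 33.8), Junb (347 CPM, the others 161 to 229), Egr1 (173 CPM, 40.9 to 75.6), Ier2 (95.7 CPM, 41.9 to 60.4) and Dusp1 (182 CPM, 73.1 to 101). CoCM animal 40 stood apart for Jun (489 CPM, 229 to 326), Egr1 (174 CPM, 49.1 to 70.2), Atf3 (172 CPM, 18.8 to 68.7) and Ier2 (97.8 CPM, 38.2 to 58.2). The i.p. animal 29 stood apart for Egr1 (187 CPM, 35.9 to 81.8) and Zfp36 (318 CPM, 155 to 212). Egr1 was the gene for which this held in 3 of 4 groups. Fosb and Nr4a1, although among the most variable genes, had no animal apart by this measure. Fosb came close in 3 groups, with ratios of 0.599 in Ctrl (24.8 CPM in animal 1, next 12.2), 0.59 in CoCM (52 CPM in animal 40, next 24) and 0.615 in i.v. ABCB5+ (44.5 CPM in animal 43, next 25.5).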

How the results depend on the processing

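In all settings and with each of 24 kidneys left out, 0 of the 10 genes passed an adjusted p of 0.05 in any comparison of groups, and the sign of none of the 10 turned in i.v. ABCB5+ against Ctrl or in i.p. against i.v. ABCB5+. The number of all genes past that threshold moved as follows. For CoCM against Ctrl (1 gene by edgeR) it was 78 by DESeq2, 183 by limma with quality weights, 0 on log2(TPM + 1), without animals 36 to 39 or with only the groups compared, and 0 to 31 with 1 kidney left out (31 without Ctrl animal 23). DESeq2 gave 1 for i.v. ABCB5+ against Ctrl, 1 for i.p. against i.v. ABCB5+, 3 for CoCM against the cell groups, 10 for any group difference and 2 for the slope with number, and limma with quality weights gave 2 for CoCM against the cell groups and 1 for any group difference (0 to 1 with 1 kidney left out). The median SD of the 10 genes of 0.59 was 0.40, and their median correlation of 0.58 was 0.21, without Ctrl animal 1, i.p. animal 29 and CoCM animal 40. The cause was not tested.

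Small differences turned sign. With quality weights these were, in CoCM against Ctrl, Fos 0.32, Jun -0.07, Atf3 -0.00054 and Dusp1 -0.06, in i.p. ABCB5+ against Ctrl, Fosb -0.47, Junb -0.11, Egr1 -0.21, Ier2 -0.04 and Nr4a1 -0.23, in CoCM against the cell groups, Fosb -0.17 and Atf3 -0.33, and in all treated animals against Ctrl, Dusp1 -0.0037 and Zfp36 -0.18. On log2(TPM + 1) they were, in the same order, Fos 0.01, Jun -0.08, Ier2 -0.10 and Dusp1 -0.01, then Fosb -0.02, Junb -0.04, Egr1 -0.06 and Nr4a1 -0.01, then Fosb -0.13 and Atf3 -0.02, then Junb -0.07 and Zfp36 -0.03. Junb in all treated animals was -0.01 with median-ratio scaling, without a filter, with at least 10 counts per kidney and by DESeq2. Without animals 36 to 39, Fosb was -0.07 in i.p. ABCB5+ against Ctrl, Dusp1 was 0.14 in CoCM against the cell groups and Zfp36 was -0.03 in all treated animals.

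With 1 kidney left out, the ranges that crossed 0 were, in CoCM against Ctrl, Fos -0.42 to 0.52, Jun -0.09 to 0.14, Junb -0.27 to 0.03, Egr1 -0.49 to 0.28, Atf3 -0.15 to 0.65, Ier2 -0.20 to 0.23, Dusp1 -0.14 to 0.40 and Zfp36 -0.25 to 0.05. In i.p. ABCB5+ against Ctrl they were Fos -0.47 to 0.62, Fosb -0.41 to 0.63, Junb -0.15 to 0.21, Egr1 -0.37 to 0.40, Ier2 -0.07 to 0.28 and Nr4a1 -0.16 to 0.33. In CoCM against the cell groups they were Fosb -0.51 to 0.41, Atf3 -0.38 to 0.42 and Dusp1 -0.38 to 0.07, and in all treated animals Fos -0.12 to 0.74, Junb -0.08 to 0.19 and Zfp36 -0.03 to 0.23. For the slope with number, in log2 units per number, they were Jun -0.013 to 0.007, Egr1 -0.009 to 0.046, Atf3 -0.039 to 0.030, Ier2 -0.016 to 0.012, Dusp1 -0.023 to 0.014 and Zfp36 -0.017 to 0.007.

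No paired analysis was possible because no animal number occurs in more than 1 group. With 6 animals per group and SDs of up to 1.08 on the log2 scale, Fosb, Fos, Atf3 and Nr4a1 limit what can be seen far more than counting error does, since all 10 genes were read well above the floor. Leaving out Ctrl animal 1 or the 3 high animals was weighed only after their values were known.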
